A study of Homo sapiens with 8 samples.

Results

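Gene expression was compared between late and early libraries of a human lymphoblastoid cell line, which is a culture of B cells made immortal by Epstein-Barr virus. The 4 late libraries, 2 labelled 3 days and 2 labelled 7 days post Cr6 treatment, were set against the 4 early libraries, 2 control and 2 labelled 24h Cr6, and these 8 are all libraries of the series analysed here. The cells were kept in RPMI medium; the control libraries came from cells that had not yet met chromium, the 24 h libraries from cells given 5 µM hexavalent chromium for 24 h, and the late libraries from cells sampled 3 or 7 days post that treatment. The labels name 1 cell line and 2 biological replicates per group, and do not say whether the replicates were separate cultures, so the p-values measure the spread between these libraries. The labels count the days as post treatment and the series text counts time points from the start of the exposure, which leaves the start of the day count unsettled. No unexposed cells of the late times were analysed here, so the chromium exposure and the time in culture cannot be told apart in any result given here.

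Hexavalent chromium enters cells as chromate through anion transporters and is reduced inside them to the trivalent form, which binds DNA and proteins. Epstein-Barr virus keeps lymphoblastoid cells growing in part through a viral membrane protein, LMP1, that acts like a permanently engaged CD40 receptor and turns on NF-kB. NF-kB is a family of dimeric transcription factors held in the cytoplasm by inhibitor proteins until a signal degrades them. In B cells its target genes include chemokines, costimulatory surface proteins, survival factors and its own subunits and inhibitors.

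Each library held 9478459 to 11110830 counts over 23710 gene symbols, of which 12536 genes passed the count filter. The 12 B cell markers all reached 10 CPM (read counts set to a common library size with TMM factors), with summed levels of 2700 to 3622 CPM in the early and 2046 to 2636 CPM in the late libraries. Of markers of other cells, 0 of 13 for T and NK cells (7.38 to 12.4 CPM in sum in the early and 9.61 to 11.96 in the late libraries), 1 of 11 for myeloid cells (ITGAM; 9.23 to 14.9 and 5.80 to 11.5), 0 of 12 for fibroblasts and epithelium (9.62 to 16.0 and 4.86 to 9.90) and 0 of 6 for erythroid cells (0 to 0.101 and 0 to 0.110) reached 10 CPM; 5, 3, 1 and 5 of these markers were at 0 in every library. The 20 highest genes took 12.5% of the gene counts in replicate 1 of both late times and 8.88% to 9.65% in the other 6 libraries. The mean of this share was 11.0 ± 1.70% in the late and 9.17 ± 0.311% in the early libraries (SD, n = 4; exact permutation test, two-sided, p = 0.0286, the smallest that 4 against 4 allows; adjusted p = 0.143 over 5 library measures). The permutation test takes the libraries as independent, while they form the close pairs given next, so its p can be too small. So do the edgeR, DESeq2 and limma-voom fits of late against early below, except where a block or summed counts are named. Their p can be too small for the same reason, and n = 4 counts libraries. Both late replicate 1 libraries also had the lowest share of reads under no feature, 39.4% at 3 days and 36.5% at 7 days, against 44.4% to 51.5% in the other 6. A chi-square of the counts over genes, divided by its degrees of freedom, was 4.55 between the replicate 1 libraries of 3 and 7 days and 5.68 between their replicate 2 libraries, against 94.9 between the replicates at 3 days and 78.8 at 7 days. In the early libraries it was 6.23 between control replicate 1 and 24 h replicate 2. It was 6.55 between control replicate 2 and 24 h replicate 1, against 24.2 between the control replicates and 27.8 between those at 24 h. The late libraries thus form 2 close pairs that stand apart by replicate number, and the early libraries form close pairs with crossed numbers. By the same measure the late replicate 2 libraries lay 17.7 to 32.7 from the early libraries, and the late replicate 1 libraries 74.9 to 131.9. Late replicate 2 was thus nearer to the early libraries than to late replicate 1. Results below are given for each library. All libraries are bulk RNA, in which fewer cells of a type and less RNA per cell cannot be told apart.

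A gene is called separated when its 4 late CPM values all lie on one side of its 4 early values. Of the 12536 genes, 744 (5.93%) had all late values above and 932 (7.43%) all late values below, 1676 (13.4%) in all. Scaling to total counts with no TMM factor gave 424 above and 1268 below in place of these. The edgeR quasi-likelihood test called 1 gene lower (0.00798% of those tested) and 0 higher (0.0%) at an adjusted p under 0.05. At an unadjusted p under 0.05 it gave 870 genes higher (6.94%) and 908 lower (7.24%). DESeq2 called 83 higher (0.655%) and 183 lower (1.44%) of 12673 genes, and limma-voom called 0 higher and 1 lower. Each list count below is to be read beside these shares of all genes. They are 5.93% above and 7.43% below, and 6.94% higher and 7.24% lower at an unadjusted p under 0.05 in edgeR. For DESeq2 they are 0.655% higher and 1.44% lower. Because separation was read from the same values as the fold change, the folds of separated genes describe them and are not further evidence.

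The gene that passed was ITGA1, the alpha subunit of an integrin that binds collagen. It stood at 70.4 and 77.3 CPM in control, 83.9 and 71.5 at 24 h, 22.6 and 20.7 at 3 days, and 23.3 and 22.2 at 7 days. The late libraries spanned 20.7 to 23.3 CPM and the early ones 70.4 to 83.9, with a wide gap and no overlap. The means were 75.8 ± 6.22 CPM early and 22.2 ± 1.10 CPM late (SD, n = 4), a log2 fold change of -1.77 ± 0.15 (SE; adjusted p = 0.0263, edgeR quasi-likelihood test, Benjamini-Hochberg over all genes). ITGA1 lost this call in each fit that left out 1 library (adjusted p from 0.099 to 0.34) and in the fit without both late replicate 1 libraries (0.0954), with a log2 fold change of -1.71 to -1.83 in all of these. Counts were also summed by replicate number within each arm, which in the early arm joins libraries of different close pairs. In that edgeR fit ITGA1 had an adjusted p of 0.61 and a log2 fold change of -1.75. ITGB1, the beta chain that partners it, was not separated, at 62.9 to 71.5 CPM early and 60.00 to 92.99 late.

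Of the 15 lower genes with the smallest p, 5 are NF-kB genes or known NF-kB targets: CCL22, VCAM1, TNFAIP2, NFKB2 and TRAF1. Beside ITGA1, the edgeR adjusted p of the other genes ran from 0.101 to 0.112, so none of them passed the edgeR test. The NF-kB lists held 19 and 30 of the 12536 tested genes and were chosen with earlier results of these data known. CCL22, a chemokine that draws cells bearing CCR4, stood at 725 and 534 CPM in control, 552 and 617 at 24 h, 254 and 195 at 3 days, and 257 and 203 at 7 days. Its late values were all under the lowest early value, 534 CPM, and the 2 late replicate 1 libraries were above the 2 late replicate 2 libraries. VCAM1, a surface ligand for integrins on leukocytes, was low throughout, at 7.03 and 5.43 CPM in control, 5.13 and 7.72 at 24 h, 0.822 and 1.07 at 3 days, and 2.10 and 1.91 at 7 days. RASSF4, of the Ras-association domain family, stood at 41.6 and 36.2 CPM in control, 35.9 and 36.6 at 24 h, 13.2 and 15.2 at 3 days, and 17.2 and 15.6 at 7 days, with 3 of the 4 early libraries close together and control replicate 1 above them.

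The stretch upstream of the start is shown for the 4 named genes with the smallest p whose promoter holds a kB motif or a hypoxia response core, because NF-kB and hypoxia genes are the groups described next. Each is the 250 bases before the RefSeq start on the plus strand of GRCh38.p14, written 5′ to 3′, with the kB motif in capitals in ITGA1, CCL22 and VCAM1 and the hypoxia core GCGTG in capitals in RASSF4. These are reference sequence and were not read from the cells.
ITGA1: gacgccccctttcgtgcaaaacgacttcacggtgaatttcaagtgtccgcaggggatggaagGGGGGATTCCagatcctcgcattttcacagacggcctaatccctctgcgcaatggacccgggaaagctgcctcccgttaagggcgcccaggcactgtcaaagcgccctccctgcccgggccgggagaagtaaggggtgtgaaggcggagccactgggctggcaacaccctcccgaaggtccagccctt
RASSF4: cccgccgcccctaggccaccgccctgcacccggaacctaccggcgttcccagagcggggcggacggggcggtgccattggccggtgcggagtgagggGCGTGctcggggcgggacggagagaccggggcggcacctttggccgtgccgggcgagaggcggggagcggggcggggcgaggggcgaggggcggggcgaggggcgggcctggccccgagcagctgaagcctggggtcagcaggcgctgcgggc
CCL22: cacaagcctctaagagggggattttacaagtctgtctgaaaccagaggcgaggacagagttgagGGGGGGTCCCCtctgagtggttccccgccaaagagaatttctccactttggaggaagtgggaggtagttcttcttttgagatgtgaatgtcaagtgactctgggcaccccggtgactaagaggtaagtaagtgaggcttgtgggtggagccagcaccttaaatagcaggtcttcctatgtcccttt
VCAM1: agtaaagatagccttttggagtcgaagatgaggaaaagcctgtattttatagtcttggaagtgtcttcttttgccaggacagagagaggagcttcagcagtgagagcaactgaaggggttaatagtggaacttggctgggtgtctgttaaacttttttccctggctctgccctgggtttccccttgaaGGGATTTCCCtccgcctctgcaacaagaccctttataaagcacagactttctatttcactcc
The windows lie at chr5:52787666-52787915 for ITGA1, chr10:44959552-44959801 for RASSF4, chr16:57358533-57358782 for CCL22 and chr1:100719492-100719741 for VCAM1. The kB match begins 188 bases before the start in ITGA1 and 62 bases before it in VCAM1. In CCL22 it is 2 overlapping matches, which begin 186 and 185 bases before the start. The hypoxia core in RASSF4 begins 153 bases before the start.
Over the 300 bases from 250 before to 50 after the start, the kB motif was found on either strand in 10.8% of 27305 RefSeq promoters and in 12.7% of the 9777 tested genes that matched one. It was found in 12.2% of 617 promoters of genes with late values above and in 16% of 699 with late values below. Of the 86 named genes with a promoter, 16 held a kB match. Of the NF-kB genes named above, NFKB2, TRAF1 and TNFAIP2 had none. The kB motif was found in 8 of 16 promoters of NF-kB subunits and inhibitors (50%) and 6 of 24 of NF-kB output genes (25%). These lists hold known NF-kB genes, so their shares say nothing of late against early. The core ACGTG or GCGTG, on either strand, was found in 48.4% of all promoters, 63.5% of tested genes, 69.2% of those with late values above and 56.2% of those below. A match is a run of letters in the window and was not measured as a bound site.

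Other lower genes with small p came from several families. CREB3L1, a transcription factor anchored in the ER membrane, had raw counts of 36 and 37 in control, 32 and 32 at 24 h, 4 and 2 at 3 days, and 2 and 1 at 7 days, levels too low in the late libraries for a precise fold. NTRK2, the receptor of the growth factor BDNF, stood at 17.9 and 19.8 CPM in control, 21.8 and 18.8 at 24 h, 4.52 and 6.16 at 3 days, and 8.06 and 4.42 at 7 days. CYP1B1, a cytochrome P450 that the aryl hydrocarbon receptor induces, stood at 20.4, 15.05, 19.5 and 22.97 CPM in the early and 7.09, 4.55, 6.18 and 3.52 in the late libraries (in the order control, 24 h, 3 days, 7 days, replicate 1 before 2, used from here on). The lowest early value exceeded the highest late value by 122% in NTRK2 and 112% in CYP1B1. MS4A7, a 4-pass membrane protein of the CD20 family, stood at 18.6, 19.04, 22.7 and 16.3 CPM early and 3.39, 7.41, 4.42 and 5.73 late. LINC00158, a long noncoding RNA, stood at 28.5, 34.3, 37.7 and 28.2 CPM early and 10.1, 11.1, 10.5 and 13.5 late. ALPK2, an alpha-type protein kinase, stood at 19.2, 14.8, 15.5 and 17.3 early and 8.12, 7.41, 6.30 and 5.33 late. The lowest early value exceeded the highest late value by 119.7% in MS4A7, 109% in LINC00158 and 82.8% in ALPK2. PPIC, the prolyl isomerase cyclophilin C, was at 2.20 to 3.44 CPM early and 0.442 to 0.719 late, and LHFP, a membrane protein, at 6.06 to 11.2 and 2.32 to 3.03.

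**Figure D1:**
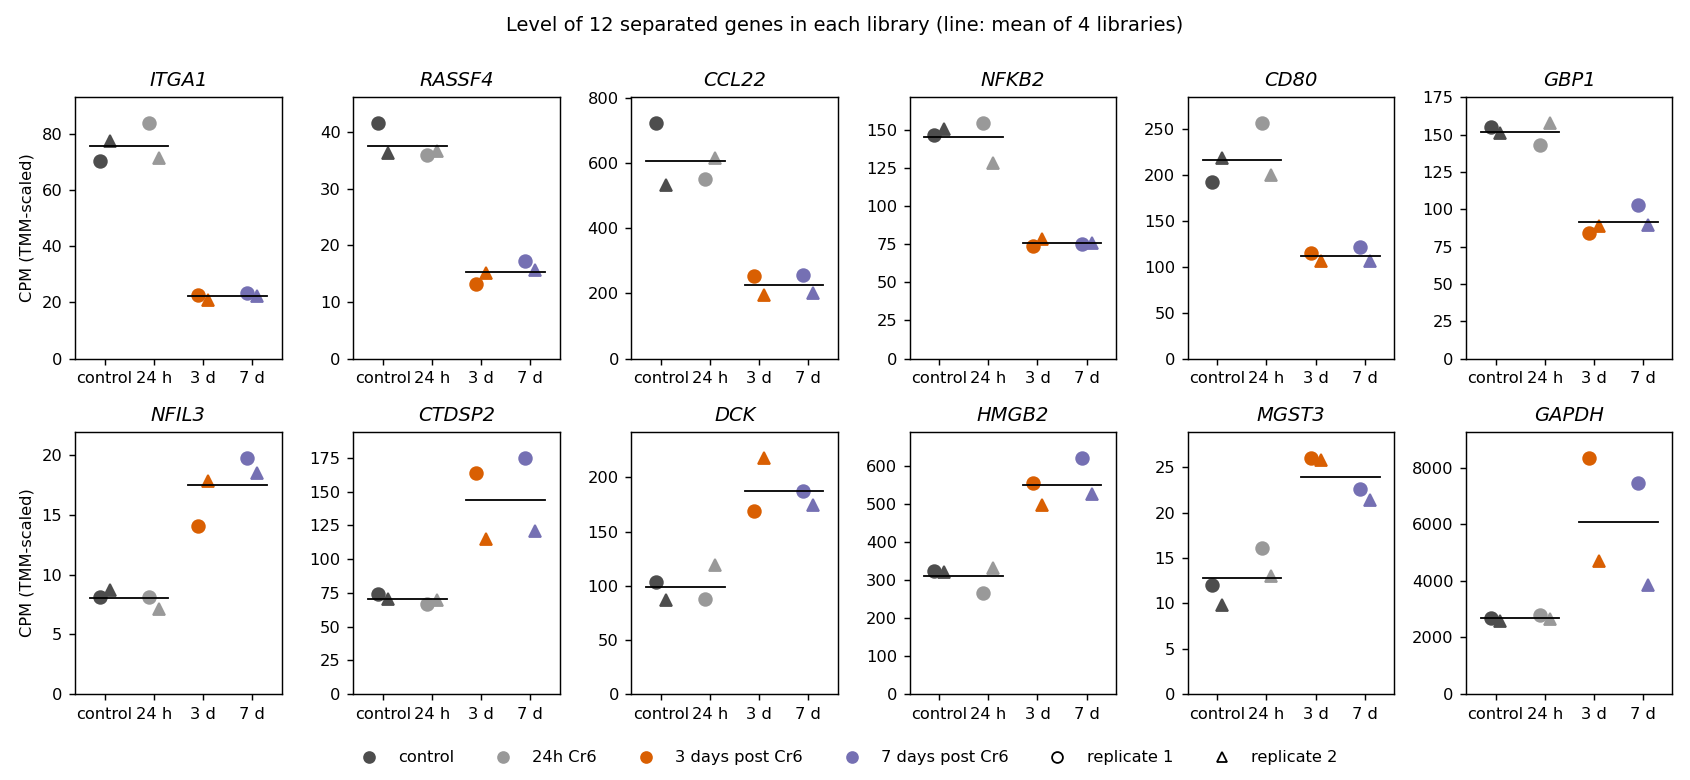
Level in CPM (y axis, from 0) of 12 separated genes in each library by labelled group (x axis); circles are replicate 1, triangles replicate 2, and lines the mean of the 4 early or 4 late libraries. ITGA1 spans 20.7 to 23.3 CPM late and 70.4 to 83.9 CPM early, and the late replicate 1 libraries of GAPDH and CTDSP2 stand above the late replicate 2 libraries.

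Of the 19 tested NF-kB subunits and inhibitors, 9 (47.4%) had all late values below all early values and 0 had them above, beside 7.43% and 5.93% of all genes; the lists were chosen with earlier results of these data known. Their median log2 fold change was -0.33, against 0.01 over all genes. Of the 19, edgeR called none, with 0 higher and 7 lower at an unadjusted p under 0.05, and DESeq2 called 0 higher and 4 lower. NFKB2, the precursor of the non-canonical subunit, stood at 147 and 151 CPM in control, 155 and 128 at 24 h, 73.6 and 78.5 at 3 days, and 74.9 and 75.98 at 7 days. Its late values lay close together and under every early value, with a log2 fold change of -0.94 ± 0.14 (SE; adjusted p = 0.112 in edgeR). REL, the subunit c-Rel, stood at 92.2, 103, 115 and 84.2 CPM early and 49.7, 60.5, 48.9 and 66.6 late. NFKB1, the precursor of p50, was close to the edge of separation, at 230.3, 253, 242 and 217 CPM early and 204, 208, 192 and 212 late. RELA, the transactivating subunit p65, was not separated and stood at 46.99 to 50.96 CPM early and 48.9 to 55.4 late; RELB was not separated either, at 13.02 to 18.4 and 8.44 to 15.9.

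Among the inhibitors and upstream regulators, BIRC3, a ubiquitin ligase of TNF receptor complexes, stood at 526, 823, 987 and 643 CPM early and 269.8, 378, 327 and 370.2 late. TNFAIP3, the deubiquitinase A20 that damps NF-kB signalling, stood at 603, 679, 815 and 669 early and 458, 404, 469 and 413 late. The early values of both were highest in 24 h replicate 1, and no late value reached the lowest early value. NFKBIA, the inhibitor that holds dimers in the cytoplasm, stood at 234, 332, 395 and 240.0 early and 224, 162, 223 and 146 late, so that the late replicate 1 libraries were close to the lowest early library. NFKBIE, a related inhibitor, TRAF3, which restrains the non-canonical branch, and CYLD, another deubiquitinase, were the other separated members. Their log2 fold changes were -0.61, -0.33 and -0.33.

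Of 30 tested NF-kB output genes, 15 (50%) lay below and 0 above, with a median log2 fold change of -0.52. Of the 30, edgeR called none, with 1 higher and 15 lower at an unadjusted p under 0.05, and DESeq2 called 0 higher and 10 lower. The list median in single libraries, set against the early mean, ran from -0.04 to 0.04 in the early libraries and was -0.52, -0.67, -0.42 and -0.75 in the late ones. TRAF1, an adaptor of TNF receptors, stood at 195 and 167 CPM in control, 182 and 181 at 24 h, 89.1 and 103 at 3 days, and 88.02 and 101 at 7 days. TNFAIP2, induced by TNF, stood at 31.4, 31.5, 41.9 and 32.1 CPM early and 17.4, 13.6, 14.6 and 14.1 late, with 24 h replicate 1 above the other early libraries. The summed B cell markers given above were also lower in the late libraries, and their part in this list was not tested. MS4A1 was the highest of these markers, at 1142 to 1638 CPM early and 818 to 999 late. Of the 12 markers only MS4A1, CR2 and CD40 were separated. The others did not lie below in all late libraries. CD79A stood at 123, 113, 104 and 114 CPM early and 204.5, 125, 175 and 114 late. POU2AF1 stood at 431, 501, 547 and 393 early and 235, 600, 215.5 and 552 late, apart by late replicate. The cytokine lymphotoxin alpha, LTA, stood at 291, 532, 455 and 252 early and 87.4, 106, 96.97 and 145 late. The highest late LTA value, 145 CPM in 7 day replicate 2, was far under the lowest early value, 252 CPM. TNF stood at 37.9 to 50.8 CPM early and 20.7 to 29.5 late, and the lymphotoxin partner LTB at 3.25 to 5.63 and 0.884 to 2.88. Of the chemokines, CCL17, which shares the receptor of CCL22, stood at 4.72 to 6.68 CPM early and 1.16 to 3.70 late, and CCL3 at 297 to 347 and 217 to 235. The survival gene BCL2A1 stood at 120.0 to 186 CPM early and 61.6 to 91.7 late. CFLAR, an inhibitor of caspase activation, stood at 370.0 to 448 and 253 to 336. MIR155HG, the host transcript of miR-155, varied widely within each arm, at 212, 353, 568 and 285 early and 58.6, 167, 61.3 and 142 late, with the late replicate 1 libraries lowest. EBI3, a cytokine subunit, IER3, an early response gene, and CD40 made up the 15.

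B cell activation and costimulation genes had 8 of 22 tested members (36.4%) below and 0 above, with a median of -0.45. The edgeR test called 0 of these 22 (1 higher and 9 lower at an unadjusted p under 0.05), and DESeq2 called 0 higher and 3 lower. The medians of the 4 late libraries lay between -0.53 and -0.47 and those of the early libraries between -0.13 and 0.18. CD80, a ligand of the T cell receptor CD28, stood at 192 and 218 CPM in control, 256 and 199 at 24 h, 115 and 106 at 3 days, and 122 and 106 at 7 days, with no overlap (log2 fold change -0.95 ± 0.15, SE; adjusted p = 0.112 in edgeR). IL2RA, the alpha chain of the interleukin 2 receptor, stood at 22.9, 24.2, 25.03 and 21.6 CPM early and 10.9, 11.8, 14.5 and 11.9 late. CD274, the checkpoint ligand PD-L1, stood at 66.1, 145, 193 and 74.9 early and 58.1, 47.02, 53.5 and 43.02 late. Its early libraries ranged from 66.1 to 193 CPM, and the gap to the late libraries was narrow. TNFRSF8, the receptor CD30, stood at 23.1 to 26.1 CPM early and 14.4 to 18.1 late. CD58, an adhesion ligand of CD2, SLAMF1, a receptor that binds itself on other cells, and ICOSLG, the ligand of ICOS, were also below, with log2 fold changes of -0.76, -0.61 and -0.44.

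Among 16 tested TNF superfamily ligands and receptors, 3 lay below (18.75%, against 7.43% of all genes) and 0 above, with a median of -0.08. TNFRSF9, the costimulatory receptor 4-1BB, stood at 14.9, 10.03, 10.3 and 11.8 CPM early and 5.14, 6.51, 4.75 and 4.52 late. TNFSF13B, the B cell survival factor BAFF, stood at 23.2, 24.3, 31.4 and 26.1 and 11.5, 17.5, 13.6 and 13.3, and TNFSF8, the ligand of CD30, at 4.02 to 6.50 and 2.47 to 3.12. Of 17 adhesion and integrin genes, 3 lay below (17.65%) and 1 above (5.88%), against 7.43% and 5.93% of all genes. Their median was -0.31, which was -0.13 without both late replicate 1 libraries and -0.63 without both late replicate 2 libraries. SELPLG, the ligand of P-selectin, was the member above, at 5.11 to 7.20 CPM early and 8.02 to 10.3 late, and CD9, a tetraspanin, lay below, at 4.84 to 7.44 and 2.41 to 3.87. ICAM1, an NF-kB induced adhesion ligand, was not separated: it stood at 136, 145, 157 and 128 early and 154, 82.2, 143 and 84.4 late.

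Interferon-stimulated genes, which act against viruses, had 10 of 32 tested members (31.3%) below and 0 above, with a median of -0.50. The edgeR test called 0 of these 32 (1 higher and 15 lower at an unadjusted p under 0.05), and DESeq2 called 0 higher and 5 lower. The list medians of the late libraries were -0.63, -0.33, -0.58 and -0.33, and those of the early libraries reached from -0.29 to 0.30, so the late replicate 2 libraries stood just under the lowest early one. IFIT1, which binds viral RNA, stood at 95.2 and 155 CPM in control, 129 and 93.4 at 24 h, 63.5 and 66.7 at 3 days, and 65.3 and 69.3 at 7 days. IFIT3, its partner, stood at 199, 322, 265 and 197 CPM early and 149.8, 128, 162 and 129 late, and IFI6 at 160.2 to 204 and 109.8 to 127. USP18, which removes ISG15 and damps interferon signalling, stood at 158, 152, 122 and 147 early and 102, 93.3, 96.4 and 106 late. The RNA sensors DDX58 and IFIH1, the antiviral genes RSAD2 and OAS3, and HERC6, a ubiquitin-ligase-like gene, were also below, with log2 fold changes of -1.19, -0.81, -1.62, -0.62 and -1.42.

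Of 14 guanylate-binding protein and IRF1 genes, 7 (50%) lay below and 0 above, with a median of -0.42. The edgeR test called 0 of these 14 (0 higher and 6 lower at an unadjusted p under 0.05), and DESeq2 called 0 higher and 4 lower. Guanylate-binding proteins are GTPases induced by interferon that attack intracellular microbes, and GBP1 to GBP5 were 5 of these 7. GBP1 stood at 155 and 151 CPM in control, 143 and 158 at 24 h, 84.2 and 88.5 at 3 days, and 103 and 89.7 at 7 days. GBP4 stood at 111, 109, 118 and 99.6 CPM early and 59.5, 42.8, 56.2 and 41.01 late, and GBP5 at 39.01, 50.98, 41.2 and 40.5 and 20.1, 24.7, 24.96 and 24.2. GBP2 and GBP3 had log2 fold changes of -0.53 and -0.35. CIITA, the master activator of MHC class II genes, stood at 93.2, 71.2, 79.6 and 94.1 early and 30.1, 54.96, 25.6 and 48.1 late, and TAP2, a peptide transporter subunit, at 166 to 174 and 114 to 131. IRF1 itself was not separated, at 64.4 to 69.3 CPM early and 54.4 to 80.1 late. Of 12 MHC class I genes 0 lay above and 1 below (median 0.01), and of 13 MHC class II genes 1 lay above and 1 below (median -0.06). The MHC class II median was -0.40 without both late replicate 1 libraries and 0.17 without both late replicate 2 libraries. NLRC5, an activator of MHC class I genes, stood at 135 to 188 CPM early and 66.7 to 121 late. HLA-DQA1, a polymorphic class II gene whose read mapping is uncertain, stood at 194 to 222 early and 129 to 184 late, and CTSS, a protease of antigen processing, at 154 to 184 and 188 to 255.

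B cell receptor genes had 4 of 24 tested members below (16.7%) and 1 above (4.17%), against 7.43% and 5.93% of all genes, with a median of -0.04. MS4A1, the surface protein CD20, stood at 1142, 1518, 1638 and 1221 CPM early and 818, 999, 949.7 and 944 late, and CR2, the complement receptor to which Epstein-Barr virus binds, at 286, 226, 251 and 291 early and 94.97, 150.0, 98.8 and 159.6 late. With CD40, these were the 3 of 12 B cell markers that were separated, all below. PIK3CD, a lipid kinase subunit of receptor signalling, stood at 155 to 193 CPM early and 81.8 to 125 late, MALT1, a protease that links the receptor to NF-kB, at 266 to 349.9 and 202 to 251, and the adaptor PIK3AP1, the member above, at 214 to 248 and 286 to 311. Of 20 B-lineage transcription factor genes, 3 lay above (15%) and 1 below (5%), against 5.93% and 7.43% of all genes. Their median was -0.03, which was 0.31 without both late replicate 1 libraries and -0.36 without both late replicate 2 libraries. ID3, an inhibitor of E proteins, stood at 7.73, 11.4, 16.3 and 6.88 early and 26.6, 18.6, 26.2 and 18.1 late, while its relative ID2 stood at 64.9, 61.4, 94.1 and 63.8 and 52.5, 36.6, 52.5 and 36.8. The E protein gene TCF3 was at 64.7 to 74.6 early and 78.4 to 104 late, and BHLHE40, a repressor, at 59.1 to 78.4 and 94.8 to 103.

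**Figure D2:**
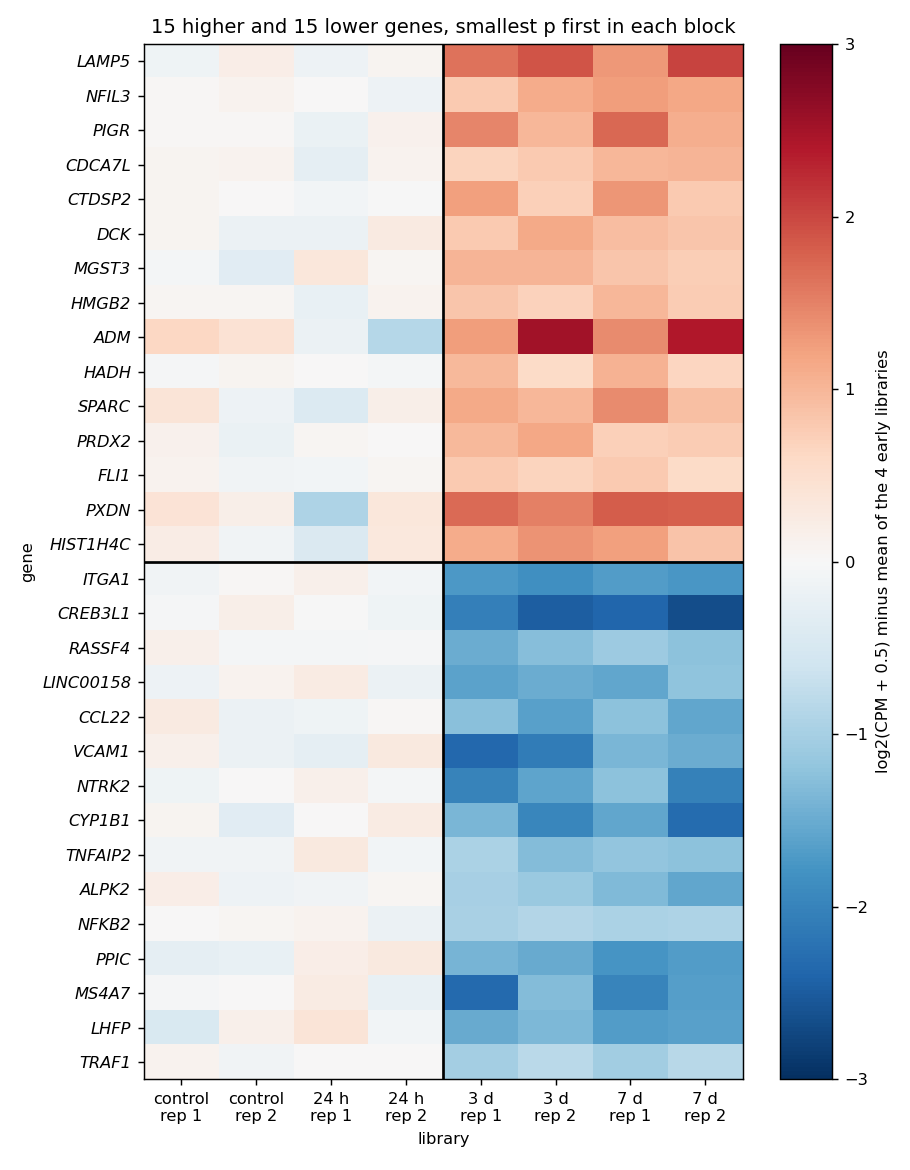
Log2(CPM + 0.5) minus the mean of the 4 early libraries (colour) in each library (x axis) for the 15 genes with late values above and the 15 below that had the smallest p (y axis). By the choice of the genes, all 4 late values lie on 1 side of all 4 early values. The 2 late replicate 1 libraries are weaker than the late replicate 2 libraries for ADM and stronger for PIGR and CTDSP2.

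Of the genes with higher late values none passed the edgeR test, and the 15 with the smallest p had adjusted p from 0.112 to 0.149 in edgeR. LAMP5, a membrane protein of the lysosomal LAMP family, stood at 1.14 and 1.54 CPM in control, 1.11 and 1.39 at 24 h, 5.04 and 6.07 at 3 days, and 3.87 and 6.73 at 7 days. NFIL3, a repressor of the basic leucine zipper family, stood at 8.17 and 8.70 CPM in control, 8.14 and 7.16 at 24 h, 14.1 and 17.8 at 3 days, and 19.8 and 18.5 at 7 days. Their late values lay clear of the early ones, and NFIL3 had means of 8.04 ± 0.643 CPM early and 17.5 ± 2.44 CPM late (SD, n = 4). PIGR, the receptor that carries polymeric antibodies across epithelia, stood at 7.20, 7.17, 6.03 and 7.72 CPM early and 20.4, 14.5, 24.1 and 15.5 late. CTDSP2, a phosphatase that acts on RNA polymerase II, stood at 73.97, 70.5, 66.3 and 69.5 early and 164, 115, 175 and 121 late. In both genes the late replicate 1 libraries were the highest of the 8. DCK, the kinase that salvages deoxycytidine, stood at 103, 86.5, 87.3 and 119 CPM early and 169, 218, 188 and 175 late. HMGB2, a DNA-bending chromatin protein of dividing cells, stood at 323, 319, 265 and 330.2 early and 553, 497, 619.6 and 525 late, and CDCA7L, a MYC-interacting gene, at 29.3, 30.1, 23.02 and 29.9 and 44.3, 48.7, 55.8 and 57.5. In these 3 genes the late replicates differed less from each other than from the early libraries. FLI1, an ETS transcription factor, stood at 66.5 to 77.7 CPM early and 107 to 124 late, and HADH, an enzyme of fatty acid oxidation, at 76.6 to 85.3 and 120.2 to 166. SPARC, a secreted matrix-binding protein, stood at 19.6 to 34.5 early and 50.1 to 71.6 late, and PXDN, a matrix peroxidase, at 0.402 to 1.76 and 4.37 to 5.52.

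Hypoxia-inducible factor, HIF, switches on glycolysis and other genes when oxygen is short, through the core motif given above. Of 35 tested hypoxia and HIF target genes, 10 (28.6%) lay above and 0 below, with a median log2 fold change of 0.40. The edgeR test called 0 of these 35 (11 higher and 0 lower at an unadjusted p under 0.05), and DESeq2 called 4 higher and 0 lower. ADM, the vasodilator peptide adrenomedullin, was low, at 1.93 and 1.64 CPM in control, 0.905 and 0.372 at 24 h, 3.29 and 8.65 at 3 days, and 3.75 and 7.84 at 7 days, with the late replicate 2 libraries highest. AK4, a mitochondrial adenylate kinase, stood at 164, 163, 195 and 167 CPM early and 279, 269, 274 and 240.2 late. BNIP3, a mitophagy receptor, stood at 108, 141, 171 and 96.2 early and 284, 221, 229 and 227 late, and DDIT4, an inhibitor of mTOR signalling, at 102, 145, 127 and 75.2 and 251, 179, 227 and 174. No late value of these 4 genes reached down to the early ones. KDM3A, a histone demethylase, FAM162A, PFKFB3, a regulator of glycolysis, PLOD1, a collagen-modifying enzyme, MXI1, a MYC antagonist, and NDRG1 were also above, with log2 fold changes of 0.26 (PLOD1) to 1.17 (NDRG1). The list median overlapped between the arms: it reached from -0.22 to 0.23 in the early libraries and was 0.18, 0.64, 0.07 and 0.48 in the late ones. VEGFA was not separated, at 21.6, 51.3, 57.2 and 16.4 CPM early and 37.5, 57.7, 32.5 and 49.1 late, nor was HIF1A, at 192 to 274 and 189.6 to 269. The promoter core ACGTG or GCGTG was found in 24 of 29 promoters of this list (82.8%) and in 11 of 18 of the glycolysis genes (61.1%), beside 63.5% of tested genes. The hypoxia list holds known HIF targets, so its share says nothing of late against early.

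Glycolysis genes had 11 of 19 tested members (57.9%) above and 0 below, with a median of 0.55. The edgeR test called 0 of these 19 (11 higher and 0 lower at an unadjusted p under 0.05), and DESeq2 called 5 higher and 0 lower. The list medians were 0.75 and 0.70 in the late replicate 1 libraries, 0.39 and 0.40 in the late replicate 2 libraries, and -0.14 to 0.05 in the early libraries. GAPDH, the enzyme at the middle of the pathway, whose processed copies make its counts uncertain, stood at 2685 and 2578 CPM in control, 2801 and 2638 at 24 h, 8341 and 4705 at 3 days, and 7458 and 3837 at 7 days. LDHA, which turns pyruvate into lactate, stood at 1893, 1825, 1641 and 1567 CPM early and 3423, 2505, 3403 and 2626 late. All late values of both were above the early ones, and the late replicate 1 libraries were the highest. GPI, an isomerase early in the pathway, stood at 209, 185, 191 and 164 early and 459, 266, 394 and 261 late, and PGAM1, a mutase of its lower part, at 613, 529, 559 and 530.2 and 1252, 769, 1116 and 734. PGK1, a kinase of the lower part, went the other way between late replicates: it stood at 1244, 1258, 1462 and 1089.7 early and 1698, 2118, 1602 and 1838 late. ENO1, PKM, ALDOA, PGM1, PFKP and the lactate exporter SLC16A3 were the other members above, with log2 fold changes of 0.21 (PFKP) to 0.95 (ENO1). Without both late replicate 1 libraries the list median was 0.38.

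Genes of G2 and mitosis had 18 of 32 tested members (56.3%) above and 0 below, with a median of 0.41. The edgeR test called 0 of these 32 (16 higher and 0 lower at an unadjusted p under 0.05), and DESeq2 called 4 higher and 0 lower. All 32 had a positive log2 fold change. The list medians were 0.27, 0.45, 0.42 and 0.58 in the late libraries and -0.20 to 0.15 in the early ones. CDK1, the kinase that drives entry into mitosis, stood at 237 and 218 CPM in control, 241 and 289.7 at 24 h, 308 and 363 at 3 days, and 339.9 and 333 at 7 days. NUSAP1, a spindle protein, stood at 156, 133, 118 and 139 CPM early and 224, 205, 225 and 193 late, and CCNB2, a cyclin partner of CDK1, at 79.9, 67.9, 55.5 and 85.5 and 131, 100.3, 128 and 119.7. CDC25C, the phosphatase that activates CDK1, stood at 23.9, 19.1, 15.98 and 22.3 early and 36.4, 34.7, 33.4 and 31.3 late. The late values of these genes were all above the early ones, and in CDK1 the lowest late value, 308 CPM, was close to the highest early value, 289.7 CPM. KIF2C, a microtubule depolymerase, stood at 79.6, 59.9, 54.1 and 78.9 early and 158, 93.2, 158 and 103 late, with the late replicate 1 libraries highest. MKI67, the proliferation marker Ki-67, stood at 409.9, 422, 302 and 402 early and 522, 467, 660.0 and 594 late, and TOP2A, a topoisomerase of dividing cells, at 489.7, 566, 497 and 574 and 578, 724, 732 and 823.

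DNA replication genes had 15 of 39 tested members (38.5%) above and 0 below, with a median of 0.38. The edgeR test called 0 of these 39 (18 higher and 0 lower at an unadjusted p under 0.05), and DESeq2 called 2 higher and 0 lower. The late medians were 0.54, 0.34, 0.48 and 0.33, just above the early range of -0.28 to 0.27. RRM1, the large subunit of ribonucleotide reductase, stood at 283 and 183 CPM in control, 158 and 274 at 24 h, 520.5 and 335 at 3 days, and 547 and 345 at 7 days. Its partner RRM2 stood at 605, 302, 264 and 619.7 CPM early and 829, 879, 842 and 905 late. In both genes control replicate 1 and 24 h replicate 2 were the highest early libraries. TYMS, which makes thymidylate, stood at 185, 118, 125 and 174 early and 358, 216, 373 and 199.6 late, TK1, which salvages thymidine, at 27.8, 16.5, 15.2 and 24.9 and 51.4, 28.7, 44.8 and 37.7, and LIG1, the ligase that joins Okazaki fragments, at 40.9, 31.2, 29.6 and 39.2 and 46.97, 54.2, 52.2 and 49.8. The helicase subunits MCM3 and MCM5, the origin protein ORC6, the GINS subunits GINS1 and GINS2, the clamp loader subunits RFC4 and RFC5, RPA1 and RPA3, which coat single strands, and the primase PRIM1 were the others, with log2 fold changes of 0.33 (RFC4) to 0.56 and 0.56 (MCM5 and ORC6). Replication-dependent histone genes, most of which lack a poly-A tail and share reads with copies, had 1 of 8 above and 1 below, with a median of -0.15. HIST1H4C stood at 7.84 to 13.7 CPM early and 19.9 to 28.3 late, and HIST1H2BK at 56.7 to 76.3 and 39.3 to 54.5.

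In several lists the higher late median came mostly from replicate 1. These 2 libraries also had the highest share of counts in the 20 highest genes, and the part of that share in these medians was not tested. Ribosomal protein genes, which share reads with many pseudogenes, had 18 of 76 tested members (23.7%) above and 0 below, with a median of 0.93. The edgeR test called 0 of these 76 (64 higher and 0 lower at an unadjusted p under 0.05), and DESeq2 called 9 higher and 0 lower. Their list medians were 1.44 and 1.38 in the late replicate 1 libraries and 0.16 and 0.23 in the late replicate 2 libraries, against -0.13 to 0.16 early. RPL8 stood at 91.1 and 76.7 CPM in control, 69.5 and 77.5 at 24 h, 268 and 117 at 3 days, and 281 and 143 at 7 days. RPS18 stood at 640.5, 504, 527 and 625 CPM early and 1918, 756, 1719 and 895 late, and RPL22 at 198, 187, 190.1 and 215 and 507, 265, 512 and 263. In these 3 genes each late replicate 2 library was above the early ones by far less than the late replicate 1 libraries. Targets of p53, the transcription factor that responds to DNA damage, had 2 of 38 above (5.26%) and 0 below, close to the 5.93% of all genes, although the median was 0.61. Their list medians were 1.12 and 1.08 in the late replicate 1 libraries and -0.26 and -0.31 in the late replicate 2 libraries, and the median over genes was -0.30 without both late replicate 1 libraries. CDKN1A, the cell cycle inhibitor p21, shows this: it stood at 103 and 79.2 CPM in control, 80.2 and 103 at 24 h, 387 and 73.9 at 3 days, and 366 and 63.6 at 7 days, and was not separated. CCNG1, a p53-induced cyclin, stood at 380.4, 319, 398 and 406 CPM early and 725, 513, 758 and 444 late, and POLH, a polymerase that copies damaged DNA, at 109, 73.5, 82.6 and 106 and 216, 142, 201 and 127; these were the 2 separated members.

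NRF2 and glutathione genes, which answer oxidative stress, had 5 of 33 above (15.2%) and 0 below, with a median of 0.33 that was 0.05 without both late replicate 1 libraries. MGST3, a membrane-bound glutathione transferase, was high in all 4 late libraries, at 12.04 and 9.83 CPM in control, 16.1 and 13.02 at 24 h, 26.00 and 25.8 at 3 days, and 22.6 and 21.4 at 7 days. GSTO1, a transferase that reduces glutathione-bound targets, stood at 81.4, 61.7, 102 and 98.6 CPM early and 139, 128, 123 and 107 late, GSR, which regenerates glutathione, at 95.8, 91.1, 102 and 89.1 and 114, 115, 112 and 126, and PRDX2, a peroxiredoxin outside this list, at 6.14 to 7.91 and 12.04 to 16.6. TKT, an enzyme of the pentose phosphate pathway, stood at 53.9, 55.7, 50.4 and 44.5 early and 151, 64.5, 138 and 65.9 late, and GSTP1 at 53.9, 55.1, 50.4 and 49.7 and 110.3, 55.1, 95.9 and 63.7. For TKT and GSTP1 the late replicate 1 libraries were far above the late replicate 2 libraries, which lay near the early values. NQO1, a standard NRF2 target, was not separated, at 11.96 to 15.4 CPM early and 47.2, 16.1, 49.6 and 14.7 late. Metallothionein and metal response genes had 0 of 10 above and 0 below, with a median of 0.21. The metallothionein MT2A stood at 3.07, 3.69, 3.42 and 4.09 CPM early and 5.86, 1.52, 8.28 and 1.41 late.

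Nuclear-encoded respiratory chain genes had 3 of 46 above (6.52%) and 0 below, close to the 5.93% of all genes above. Their median was 0.40, and 0.09 without both late replicate 1 libraries. Their separated members were NDUFA1 at 12.2 to 14.8 CPM early and 15.3 to 24.8 late, NDUFS4 at 12.04 to 14.5 and 15.1 to 18.6, and ATP5C1 at 101 to 126 and 135 to 166. Proteasome genes had 2 of 31 above (6.45%), also close to the share of all genes. These were PSMB1 at 55.8 to 61.1 early and 61.9 to 98.8 late and PSMD13 at 96.2 to 135 and 135 to 176. The list median was 0.32, and -0.02 without both late replicate 1 libraries. Heat shock genes had 0 of 15 on either side (median 0.22). MYC network and ribosome biogenesis genes had 1 of 32 above, ODC1, the first enzyme of polyamine synthesis, at 670.2, 601, 534 and 682 early and 1023, 911, 1087 and 867 late (list median 0.19). Amino acid response genes driven by ATF4 had 3 of 28 above (10.7%) and 2 below (7.14%), against 5.93% and 7.43% of all genes (median 0.08). Those above were PHGDH, SHMT2 and GPT2, enzymes of serine, glycine and alanine metabolism, at 12.7 to 30.6, 43.9 to 68.8 and 8.17 to 14.98 CPM early and 34.9 to 47.4, 80.1 to 119 and 16.6 to 20.3 late. Those below were ATF5, a transcription factor, at 24.8 to 34.8 early and 18.3 to 23.02 late, and the tryptophan-charging enzyme WARS, at 722 to 799 and 477 to 694.

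Cholesterol synthesis genes had 0 of 27 above and 1 below (median -0.17), LSS, which closes the sterol rings, at 73.97, 124, 121 and 69.6 CPM early and 37.00, 56.3, 34.8 and 65.8 late. ER stress genes had 2 of 22 above (9.09%) and 1 below (4.55%), against 5.93% and 7.43% of all genes. Their median was -0.07, which was 0.22 without both late replicate 1 libraries and -0.48 without both late replicate 2 libraries. Those above were the chaperones CANX at 1110.1 to 1415 early and 1438 to 1678 late and PDIA6 at 391 to 648 and 686 to 741. CREB3L1 was the member below. DNA repair genes had 1 of 39 above and 2 below (median 0.06). NBN, part of the complex that senses double-strand breaks, stood at 189, 271, 295 and 213 early and 121, 159.9, 131 and 161 late, TP53BP1, which steers the choice of repair path, at 106, 104, 97.9 and 98.2 and 71.02, 90.8, 69.7 and 94.1, and CHEK1, a checkpoint kinase, at 124, 103, 82.1 and 134 and 149.7, 137, 165 and 142. The share on either side was under or near that of all genes in this list. Immediate early genes had 3 of 26 above (11.5%) and 1 below (3.85%), against 5.93% and 7.43% of all genes (median -0.12). FOS stood at 5.80, 1.84, 2.41 and 6.14 CPM early and 11.9, 16.6, 12.9 and 25.2 late and FOSB at 5.62, 2.66, 1.91 and 3.16 and 7.81, 16.1, 7.84 and 20.3; these partners in the AP-1 factor were low in all libraries and highest in the late replicate 2 libraries. KLF2, a transcription factor of quiescent lymphocytes, was at 0.439 to 1.61 early and 1.66 to 4.46 late, and IER3 was the member below. With edgeR, adhesion and integrin genes were the 1 list of 29 with a called member, ITGA1; with DESeq2, 21 of the 29 lists had at least 1 called member.

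**Figure D3:**
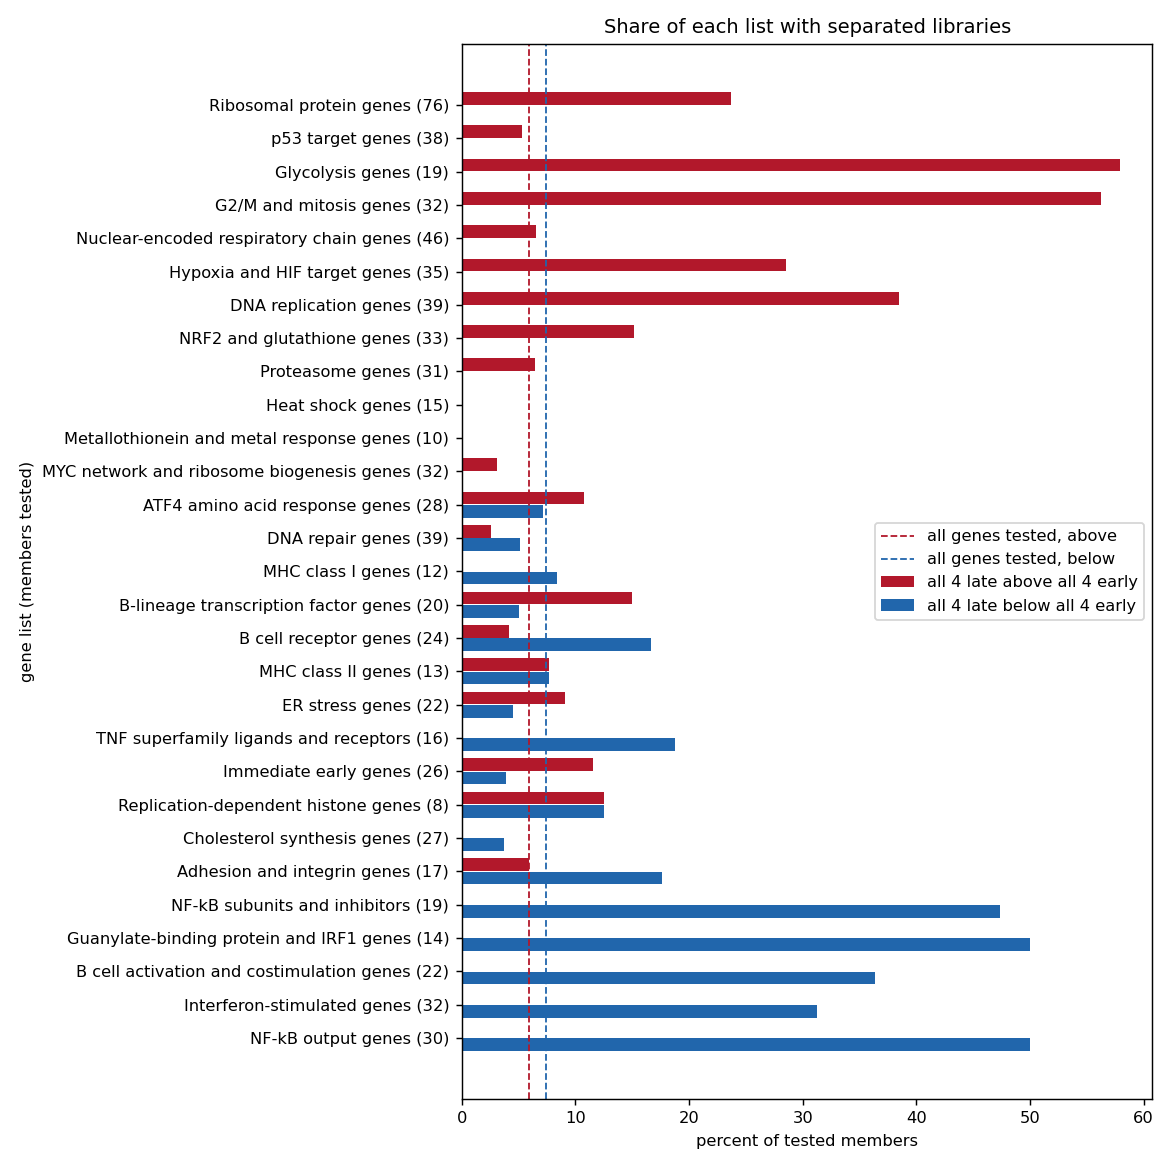
Percent of tested members (x axis) of each gene list (y axis, number tested in brackets) with all 4 late values above (red) or below (blue) all 4 early values; dashed lines mark 5.93% and 7.43%, the shares over all 12536 genes. Glycolysis and mitosis genes have the longest red bars (57.9% and 56.3%), and NF-kB output and guanylate-binding protein genes the longest blue ones (50% each).

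**Figure D4:**
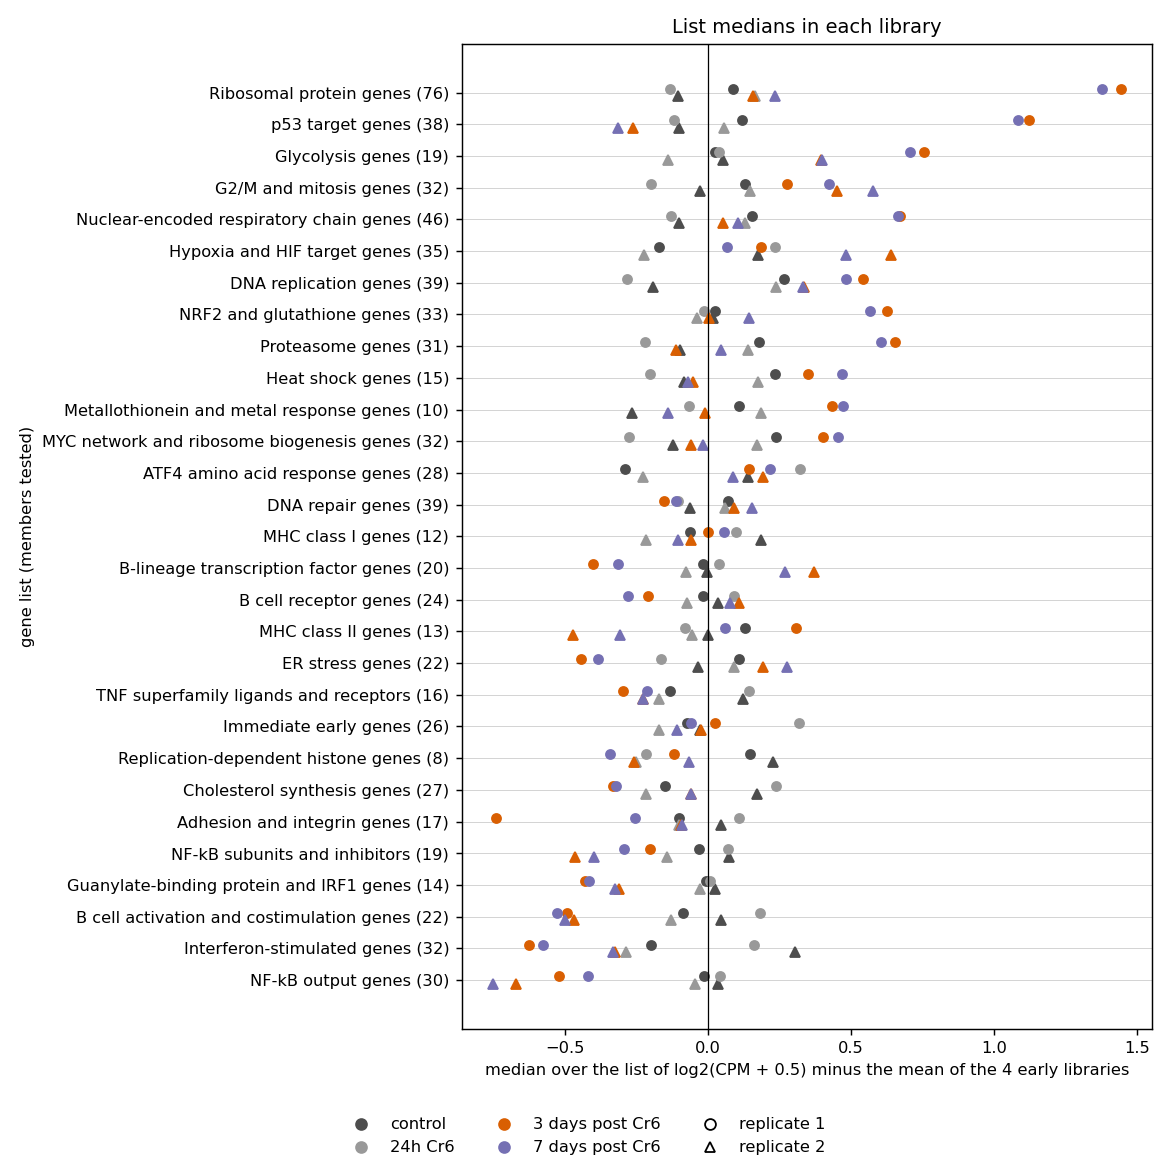
Median over each list (y axis) of log2(CPM + 0.5) minus the early mean (x axis) in each library; circles are replicate 1, triangles replicate 2, and colours the 4 groups. The late circles of ribosomal protein genes (1.44 and 1.38) and p53 targets (1.12 and 1.08) lie far from the late triangles, whereas the 4 late values of B cell activation genes lie between -0.53 and -0.47.

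Separation did not compare 3 with 7 days or 24 h with control, but a wide difference within an arm makes separation less likely. The counts among separated genes in this paragraph are therefore partly set by the rule. In the same fit, which has no replicate block, edgeR called 0 genes between 7 and 3 days (0.0%), with 31 at an unadjusted p under 0.05 (0.247%), of which 0 were among the genes above and 3 among those below. The median log2 difference of 7 from 3 days was -0.00 over the 744 genes above and 0.00 over the 932 below, and 48.7% and 48.5% of them were further from the early level at 7 days, against 50.2% of all genes. Between 24 h and control edgeR called 0 genes (0.0%), with 22 at an unadjusted p under 0.05 (0.175%) and none of those separated. With a crossed replicate block within each arm, chosen after seeing the data, edgeR called 10 genes between 7 and 3 days and 94 between 24 h and control. At 24 h, 45.3% of the genes above and 44.3% of those below were shifted from control towards the late level, against 44.1% of all genes.

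The genes below had larger fold changes than those above and were lower in level. The median log2 fold change was 0.51 above (10th to 90th percentile 0.26 to 0.95) and -0.73 below (-1.61 to -0.34), and 59 (7.93%) and 286 (30.7%) of them reached 2-fold. The median CPM in the higher arm was 65.0 above and 19.6 below. The gap between the nearest late and early values had a median of 6.95% above and 11.9% below; it was under 5% in 296 and 242 genes and at least 50% in 15 and 121. Just inside the limit stood PPP3R1, NIPAL2 and DHX40, with PPP3R1 at 215 CPM in both its highest early and its lowest late library. Just outside stood SUPT20H, CDCA4 and TCEB2, with the lowest late value of CDCA4 at 29.4 CPM and its highest early value at 29.5 CPM. Over the genes above, the library medians were 0.61, 0.35, 0.61 and 0.35 in the late libraries; over those below they were -0.81, -0.50, -0.79 and -0.52. The mean of the late replicate 2 libraries was nearer to the early level than that of replicate 1 for 571 of the 744 genes (76.7%) and 694 of the 932 (74.5%).

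Separated genes also differed in transcript length, given here for the GENCODE transcripts of GRCh38. The median was 3140 bases for genes above, 4672 for genes below and 3658 for all tested genes, and the median GC content was 47.8%, 45.8% and 47.3%. When each library's trend on length and GC content was removed, 923 genes lay above and 818 below, of which 625 and 690 were among the 739 and 883 with a length before. On the log2(CPM + 0.5) scale, over members with a length, this step took the list medians from -0.52 to -0.53 for NF-kB output, -0.33 to -0.22 for NF-kB subunits, -0.51 to -0.58 for interferon-stimulated, 0.66 to 0.59 for glycolysis, 0.40 to 0.48 for mitosis and 0.78 to 0.72 for ribosomal protein genes. By chromosome, the share of tested genes below ran from 4.62% on chromosome 22 to 9.89% on chromosome 18, and the share above from 3.31% on chromosome 21 to 8.58% on chromosome 22.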

How the data were processed

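RNA of 8 libraries (4 groups of 2, mapped by their treatment labels) was analysed. The deposited values are raw whole-number read counts per gene symbol, 1 table per library, made by the authors. The submitters' processing notes list R 3.2.3, DESeq2 1.8.1, SAMtools, Bowtie2 and Trim Galore, on GRCh37 or hg19. Counter, strand setting and annotation: not given in the sources used here, so antisense and overlapping genes cannot be told apart. The 5 summary entries (42.6% to 57.5% of reads) were left out. Of the 23710 symbols, 20900 matched a RefSeq symbol of GRCh38.p14, 1799 a synonym and 1011 neither; RefSeq gave names and promoters only.

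Genes were kept with filterByExpr (minimum count 10, minimum total 15; 12536 genes) and fitted with the quasi-likelihood test of edgeR 4.0.16 in R 4.3.3 (TMM factors, 1 coefficient per group, no covariate; common biological coefficient of variation 0.276, 4 residual and 4.09 prior degrees of freedom). The contrast was the mean of 3 and 7 days minus the mean of control and 24 h, with Benjamini-Hochberg adjustment and a threshold of 0.05. CPM are counts scaled by TMM-adjusted library size; medians per library use log2(CPM + 0.5). The fit was tested on simulated counts. Each simulated library was drawn independently, without the close pairs, so this does not check the error rate of the fit in these data. The alternatives were DESeq2 1.42.0, limma 3.58.1 (voom), other scalings, filters, designs and left-out libraries; a crossed block and the removal of length and GC trends were chosen after seeing the data. Members and gene lists were chosen with earlier results of these data known.

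Named genes were separated genes with at least 2 CPM in the higher arm and no clone identifier as symbol: the 15 with the smallest p in each direction and up to 4 per list, 107 of 1547 eligible. Promoters are shown for the 4 of these with the smallest p that hold a motif. The results of 4 genes, 2 of them named by this rule, are not reported here. Genes given outside this rule (members that complete a list, partners such as ITGB1, RELA and CDKN1A) were chosen after their values were seen. Total gene counts ran from 9478459 to 11110830 per library, and p-values rest on 2 libraries a group.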

Additional observations from a re-analysis of the deposited data

Results flagged for a closer look

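Of 224 sets of 4 libraries (the early and the late arm of each gene named by the rule, and of 5 library measures), 10 held 1 library far from the other 3; chance alone gives about 1 in 20. In the early libraries, 24 h replicate 1 was the library apart in 6 genes. CDCA7L stood there at 23.02 CPM, against 29.3 to 30.1 in the other 3. HMGB2 stood at 265 CPM against 319 to 330.2, and TNFAIP2 at 41.9 against 31.4 to 32.1. HLA-DQA1 stood at 222 CPM against 194 to 197, AK4 at 195 against 163 to 167, and ID2 at 94.1 against 61.4 to 64.9. Control replicate 1 was apart for RASSF4, at 41.6 CPM against 35.9 to 36.6. In the late libraries, 3 day replicate 1 was the library apart in 3 genes: GBP5 at 20.1 CPM against 24.2 to 24.96, BNIP3 at 284 against 221 to 229, and NDUFS4 at 18.6 against 15.1 to 15.5.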

How the results depend on the processing

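In place of 0 genes called higher and 1 lower, DESeq2 called 83 and 183 and the fit with no count filter 224 and 265. The fit of 2 arms with 1 coefficient each called 43 and 154. These fits take the libraries of a close pair as independent, so their counts can be too high. Counts summed by replicate number gave 0 lower. The call of ITGA1 was lost in each of the 8 fits that left out 1 library (from 0 to 0 lower genes called), and genes with late values above then numbered from 846 to 1207 and below from 1040 to 1308, since fewer libraries separate more genes. Without 3 day replicate 2 there were 1207 above, and without 7 day replicate 2 there were 1149. Without both late libraries of replicate 1, 0 genes were called lower, and 1852 lay above and 1777 below. Without both late libraries of replicate 2, 1911 were called higher and 1895 lower, and 3927 lay above and 3821 below. Each of these 2 fits has 1 library at 3 and 1 at 7 days, assumed to vary like the control and 24 h libraries, so its counts say nothing of the spread between late replicates. Total counts with no factor gave 424 above and moved the median log2 fold change of all genes from 0.01 to -0.10; the cause was not tested.

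Same-numbered libraries differed together between 3 and 7 days (correlation of replicate differences 0.81) and in opposite directions between control and 24 h (-0.60), so the numbers do not pair all groups. The fit with the replicate block called 0 higher and 1 lower, with ITGA1 at an adjusted p of 0.0382 and 872 and 1209 genes at an unadjusted p under 0.05. A crossed replicate block within each arm, chosen after seeing the data, called 10 genes between 7 and 3 days and 94 between 24 h and control. Its 3414 higher and 3482 lower genes compare late replicate 1 with only control replicate 1 and 24 h replicate 2. That contrast is tested against the spread within blocks, so these counts are not results of all late against all early libraries. The median changed sign without both late replicate 1 libraries for p53 targets (0.61 to -0.30), proteasome (0.32 to -0.02), heat shock (0.22 to -0.02), metal response (0.21 to -0.11) and MYC genes (0.19 to -0.06). It changed sign in the same way for ER stress (-0.07 to 0.22), B-lineage factor (-0.03 to 0.31), B cell receptor (-0.04 to 0.10) and MHC class I genes (0.01 to -0.14), and without both late replicate 2 libraries for MHC class II genes (-0.06 to 0.17). DNA repair, ATF4, TNF superfamily and immediate early medians changed sign under other settings.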
